A study of Homo sapiens with 32 samples.

Results

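The endoplasmic reticulum (ER) folding, translocation and degradation machinery was examined as 40 genes in MM.1S, an established human multiple myeloma cell line of plasma cell origin. The genes were taken by symbol from the deposited expression table, in which all 40 were found once each among 24249 distinct gene IDs. They fall into 2 stress sensors, 17 chaperones and folding enzymes, 11 subunits of the translocon and signal peptidase, 9 genes of ER-associated degradation (ERAD) and 1 gene of the COPII transport coat. All 40 passed the filter on low values and were tested.

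Plasma cells make large amounts of antibody, and their ER carries the load. New secretory chains enter through the Sec61 channel, lose their signal peptide to signal peptidase, and are folded by chaperones and disulfide isomerases. Chains that fail to fold are drawn back to the cytosol by the ERAD complexes and destroyed by the proteasome. When unfolded chains build up, the sensors ERN1, ATF6 and EIF2AK3 start the unfolded protein response, whose transcription factors XBP1, ATF6 and ATF4 act on chaperone and ERAD genes.

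Cells were first pulsed for 1 h with carfilzomib (Cfz), a proteasome inhibitor, at a dose that the labels do not give, or with the vehicle DMSO. They were then grown for 12 h with 10 µM all-trans retinoic acid (ATRA), a form of vitamin A and a ligand of nuclear receptors, or with DMSO. The groups were ATRA (DMSO pulse, then ATRA, 3 libraries), Cfz (Cfz pulse, then DMSO, 1 library), ATRA+Cfz (Cfz pulse, then ATRA, 1 library) and DMSO (DMSO at both steps, 3 libraries), and each library was read in 4 lanes. Nothing in the labels tells whether replicate libraries are separate cultures, so the spread behind each p-value may be technical, and the 2 lone libraries were assumed to vary like the others.

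Values are FPM, fragments scaled to a total of 1000000 in each lane, averaged over the 4 lanes of a library. Depth was 14136937 to 17155331 reads per library, at which a floor of 3 reads is 0.175 to 0.212 FPM. Summed plasma cell markers stood at 6221 to 8114 FPM in every library, while the detected markers of epithelial, stromal, myeloid and T or NK cells summed to at most 3.67, 2.55, 1.32 and 2.07 FPM, with 4 of 5, 4 of 6, 3 of 6 and 3 of 6 listed genes in the table. JCHAIN alone had 3008 to 5034 FPM of the plasma cell sum, and single plasma cell markers shifted. SDC1, TNFRSF17 and PRDM1 were higher with ATRA than with DMSO, and IRF4, JCHAIN and SLAMF7 were lower. The retinoid-induced enzyme CYP26A1 rose by 5.51 with ATRA and by 5.69 with ATRA+Cfz on the log2 scale, and HMOX1, a stress-induced haem oxygenase, rose by 2.98 with Cfz and by 3.14 with ATRA+Cfz. SQSTM1, a ubiquitin-binding autophagy receptor, and PSMB5, the proteasome subunit that carfilzomib binds, rose by 2.22 and 0.85 with Cfz. Both were also higher in each ATRA library than in every DMSO library. SQSTM1 had 755, 747 and 741 FPM with ATRA, 1894 with Cfz and 3214 with ATRA+Cfz, against 415, 401 and 406 with DMSO. PSMB5 had 47.5, 43.0 and 46.0 FPM with ATRA, 53.5 with Cfz and 51.9 with ATRA+Cfz, against 30.5, 30.8 and 27.2 with DMSO.

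The library DMSO 3 stood apart from DMSO 1 and DMSO 2 for these genes. It was the lowest of the 3 DMSO libraries for 35 of 40 members (87.5%), among them all 17 chaperones, and for 42.7% of all genes tested. Its median log2 difference from the mean of DMSO 1 and DMSO 2 was -0.16 over the members, -0.21 over the chaperones and -0.02 over all genes tested. Mitochondrially encoded genes took 3.67% to 3.89% of reads in the ATRA libraries, 5.43% in Cfz and 5.72% in ATRA+Cfz, against 4.12%, 4.09% and 5.85% in DMSO 1, DMSO 2 and DMSO 3. Counts are therefore given with and without DMSO 3, and the part of the mitochondrial share in the results was not tested.

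The promoters of some of the chaperones carry the best-known DNA elements of the unfolded protein response, so these sequences are shown first. RefSeq promoters of GRCh38.p14, 250 bases before to 50 bases after the start of a gene, were matched by symbol for 35 of the 40 members (no entry for PDIA3, SPCS1, DERL1, DERL3 and SEC24D). The ER stress response element (ERSE) was searched on both strands as CCAAT, 9 bases of any kind and CCACG. It stood in 6 of 35 member promoters, against 22 of 27305 promoters searched (0.0806%). All 6 were among the 16 matched promoters of chaperones and folding enzymes. The related ERSE-II was searched as ATTGG, 1 base of any kind and CCACG. It stood in 3 of 35 member promoters, 2 of them among the same 16, against 15 of 27305 (0.0549%). The 27305 promoters include the 35 of the members, and the difference in shares was not tested. These elements are known from promoters of this kind, so the shares are no independent support. Each window below runs 5′ to 3′ in the orientation of the motif, with the motif letters in capitals and 6 bases on each side.
HSPA5 ERSE, chr9:125241385-125241415 (- strand): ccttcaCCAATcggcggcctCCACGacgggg
HSP90B1 ERSE, chr12:103930210-103930240 (+ strand): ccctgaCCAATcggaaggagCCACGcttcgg
HSP90B1 ERSE, chr12:103930315-103930345 (- strand): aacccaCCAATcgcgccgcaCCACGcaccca
HYOU1 ERSE-II, chr11:119057374-119057396 (+ strand): cctgggATTGGaCCACGtcacgg
HYOU1 ERSE-II, chr11:119057268-119057290 (+ strand): gtactcATTGGaCCACGtcccag
CALR ERSE, chr19:12938378-12938408 (- strand): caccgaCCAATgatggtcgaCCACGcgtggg
CANX ERSE, chr5:179698772-179698802 (+ strand): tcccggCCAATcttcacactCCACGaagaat
SDF2L1 ERSE-II, chr22:21642108-21642130 (- strand): gttttgATTGGtCCACGcttccg
CRELD2 ERSE, chr22:49918548-49918578 (- strand): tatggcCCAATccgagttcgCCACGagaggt
ERO1B ERSE, chr1:236282177-236282207 (+ strand): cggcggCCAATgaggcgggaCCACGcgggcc
HERPUD1 ERSE-II, chr16:56932019-56932041 (+ strand): acgccgATTGGgCCACGttggga
The full promoter of HSPA5 is given because its transcript was higher in all 3 treatments. It lies at chr9:125241294-125241593 on the minus strand, and the capitals mark the letters of the ERSE.
HSPA5 promoter: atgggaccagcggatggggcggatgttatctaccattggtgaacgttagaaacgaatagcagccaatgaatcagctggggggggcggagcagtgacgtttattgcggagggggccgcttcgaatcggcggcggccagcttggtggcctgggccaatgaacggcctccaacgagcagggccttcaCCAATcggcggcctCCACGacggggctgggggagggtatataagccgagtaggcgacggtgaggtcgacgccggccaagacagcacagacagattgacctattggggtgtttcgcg
The promoter of HERPUD1, whose transcript moved in opposite directions with ATRA and with Cfz, lies at chr16:56931892-56932191 on the plus strand, with the letters of the ERSE-II in capitals.
HERPUD1 promoter: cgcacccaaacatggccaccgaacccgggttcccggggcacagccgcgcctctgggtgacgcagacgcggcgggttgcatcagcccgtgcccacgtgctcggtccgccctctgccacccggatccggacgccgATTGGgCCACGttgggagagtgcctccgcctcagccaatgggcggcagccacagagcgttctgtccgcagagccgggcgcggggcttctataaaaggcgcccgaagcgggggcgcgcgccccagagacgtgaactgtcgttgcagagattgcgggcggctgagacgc
The core of the unfolded protein response element, searched as TGACGTG on both strands, stood in 1 of 35 member promoters, that of HYOU1, where it overlaps an ERSE-II, and in 546 of 27305 promoters (2%). A match describes letters in this window and does not show binding.

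Transcripts of several members overlap other genes, and the strand setting is not given, so their values are uncertain to that extent. On opposite strands, DNAJB9 overlaps PNPLA8 and THAP5, SPCS1 overlaps GLT8D1 and NEK4, SSR4 overlaps IDH3G, SEC61A1 overlaps RUVBL1, CRELD2 overlaps ALG12, DERL2 overlaps MIS12 and DERL3 overlaps SMARCB1. SYVN1 overlaps MRPL49 on the opposite strand and FAU on its own. SPCS2 has a processed copy, SPCS2P4, listed at 16.3 to 27.1 FPM, with which it may exchange reads.

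**Figure D1:**
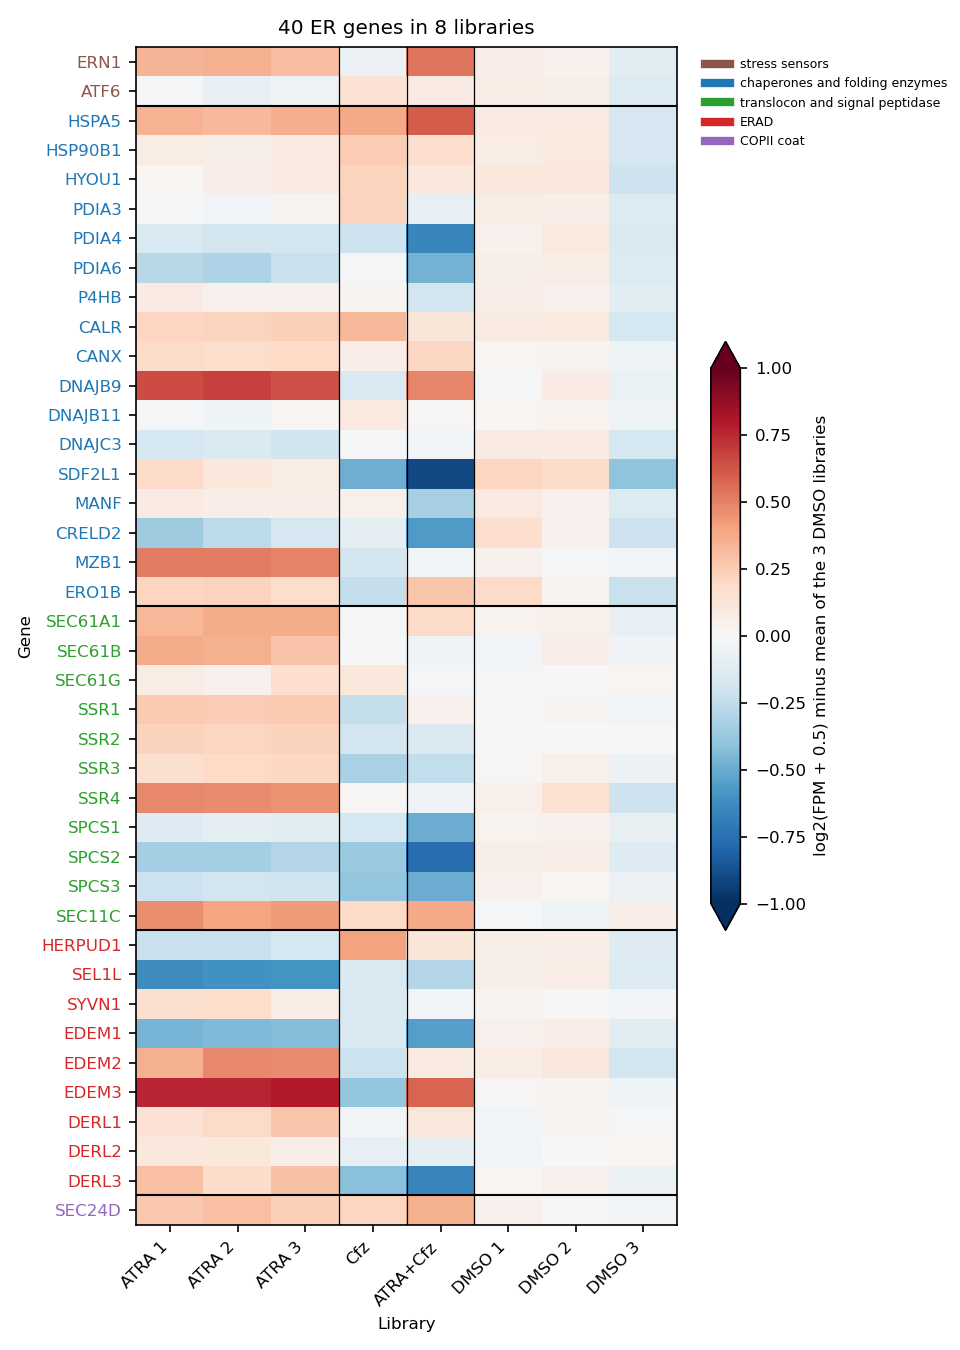
Level of each of the 40 genes (rows, grouped and coloured by role) in each of the 8 libraries (columns: ATRA 1 to 3, Cfz, ATRA+Cfz, DMSO 1 to 3), as log2(FPM + 0.5) minus the mean of the 3 DMSO libraries. DNAJB9 and EDEM3 stand out as high in the ATRA and ATRA+Cfz libraries, SEL1L as low with ATRA, SDF2L1 and SPCS2 as low with ATRA+Cfz, and DMSO 3 is below the other DMSO libraries in most rows.

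With ATRA, more members were called higher than lower. Against DMSO, 19 of 40 were called higher, where 21.3% of all genes tested were, and 10 were called lower, where 27.4% of all genes were. The translocon and signal peptidase had 7 of 11 higher and 3 lower, ERAD 5 of 9 higher and 3 lower, the chaperones 5 of 17 higher and 4 lower, and ERN1 and SEC24D rose. The median log2 fold change was 0.13 over the members and -0.03 over all genes tested. Without DMSO 3 the counts were 20 higher and 12 lower. FPM are shares of a library, so fewer cells that express a gene and less of its RNA per cell cannot be told apart.

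With the Cfz pulse alone, 25 of 40 members were not called. Of 40 members 6 were called higher (7.94% of all genes were) and 9 lower (17.0% of all genes were), and 6 of the 9 were translocon or signal peptidase genes. Chaperones had 3 of 17 higher and 1 lower, ERAD had 1 of 9 higher and 2 lower, and neither sensor was called. The median was -0.04 over the members and -0.08 over all genes tested. The split moved with the scaling and with DMSO 3: median-ratio scaling gave 9 higher and 6 lower, DESeq2 on recovered reads gave 8 and 6, and without DMSO 3 the counts were 8 and 18. Of those 18 falls, 6 were translocon and signal peptidase genes, 6 ERAD genes, 5 chaperones and 1 a sensor, and the median was -0.09 over the members and -0.09 over all genes tested.

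With ATRA+Cfz, the shares of members called were near those of all genes. Of 40 members 8 (20%) were called higher, where 20.0% of all genes were, and 14 (35%) lower, where 30.5% of all genes were. Chaperones had 3 of 17 higher and 6 lower, the translocon and signal peptidase 2 of 11 higher and 5 lower, and ERAD 1 of 9 higher and 3 lower, with ERN1 and SEC24D again higher. The median was -0.02 over the members and -0.05 over all genes. Median-ratio scaling, edgeR and DESeq2 each gave 11 higher and 12 lower, and without DMSO 3 the counts were 9 and 17. These 3 comparisons share the DMSO libraries and are not independent of each other.

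**Figure D2:**
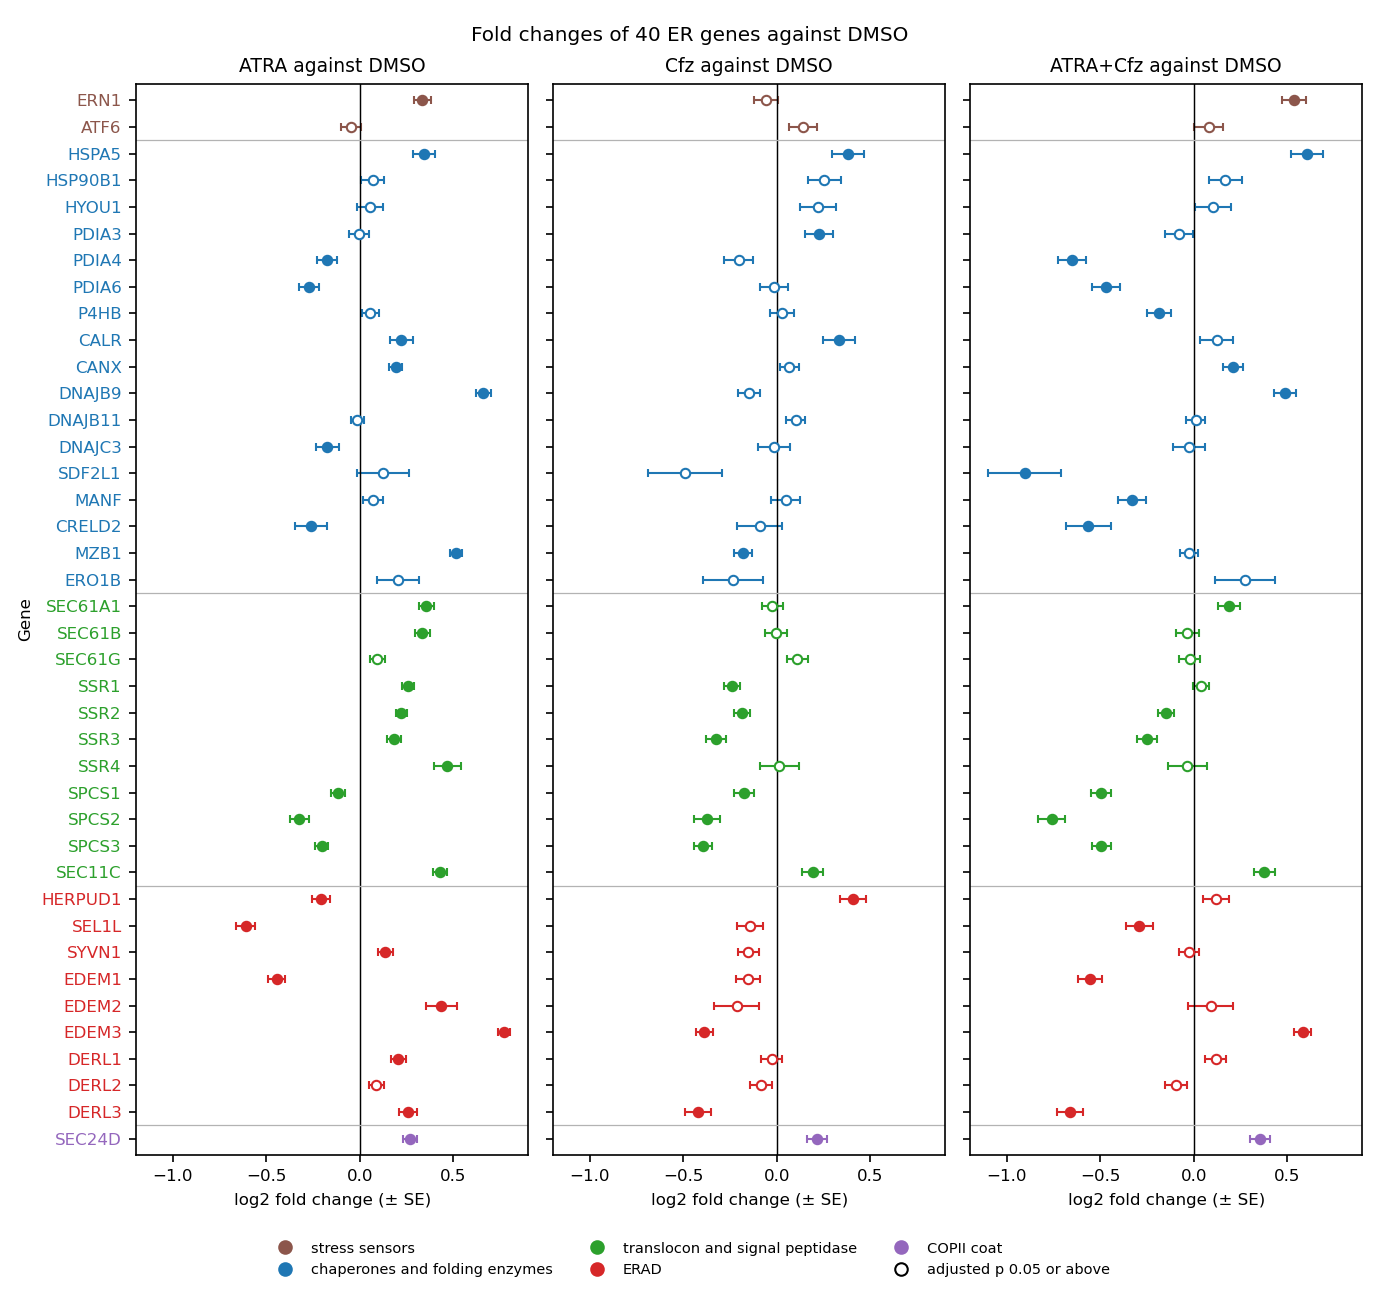
Log2 fold change on the log2(FPM + 0.5) scale with its standard error (horizontal axis) for the 40 genes (rows, coloured by role) in ATRA, Cfz and ATRA+Cfz, each against DMSO. Filled points passed the adjusted p of 0.05. EDEM3 and DNAJB9 lie farthest right with ATRA, HERPUD1 and HSPA5 with Cfz, and SDF2L1 and SPCS2 farthest left with ATRA+Cfz.

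The stress sensors parted. ERN1 encodes IRE1, the kinase and endoribonuclease that splices the messenger RNA of XBP1. ERN1 had 263, 267 and 258 FPM in the ATRA libraries, 199.8 FPM in Cfz and 302 FPM in ATRA+Cfz, against 218, 214 and 193 FPM in the DMSO libraries. Each ATRA library and the ATRA+Cfz library lay above every DMSO library, and the Cfz library lay within the DMSO range. Its log2 fold change was 0.34 ± 0.04 (SE, adjusted p = 7.2e-05) with ATRA, -0.06 ± 0.06 (SE, adjusted p = 0.55) with Cfz, which was not called, and 0.54 ± 0.06 (SE, adjusted p = 2.5e-05) with ATRA+Cfz. ATF6 encodes the membrane-bound factor that is cleaved in the Golgi apparatus. ATF6 had 214, 204 and 209 FPM in the ATRA libraries, 238 FPM in Cfz and 228 FPM in ATRA+Cfz, against 228, 225 and 196 FPM in the DMSO libraries. The ATRA values lay inside the DMSO range, and no fold change was called, with -0.05 ± 0.05 (SE, adjusted p = 0.49) for ATRA, 0.14 ± 0.08 (SE, adjusted p = 0.2) for Cfz and 0.08 ± 0.08 (SE, adjusted p = 0.41) for ATRA+Cfz. Without DMSO 3 the ATRA difference was -0.12 and was called (adjusted p = 2.0e-03).

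HSPA5 encodes BiP, the central chaperone of the ER lumen. HSPA5 had 1179, 1159.7 and 1192 FPM in the ATRA libraries, 1208 FPM in Cfz and 1413 FPM in ATRA+Cfz, against 979.8, 988 and 825 FPM in the DMSO libraries. All 5 treated libraries lay above all 3 DMSO libraries, with ATRA+Cfz the highest. Its log2 fold change was 0.34 ± 0.06 (SE, adjusted p = 5.4e-04) with ATRA, 0.38 ± 0.08 (SE, adjusted p = 7.5e-03) with Cfz and 0.61 ± 0.08 (SE, adjusted p = 9.3e-05) with ATRA+Cfz. ATRA+Cfz exceeded ATRA by 0.26 ± 0.08 (SE, adjusted p = 0.035), a call that was lost under 5 of 15 alternatives, among them leaving out any 1 ATRA library.

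The J-domain partners of BiP did not move as a block. DNAJB9 (ERdj4), a co-chaperone that holds ERN1 inactive through BiP, had 216, 221 and 216 FPM in the ATRA libraries, 124 FPM in Cfz and 193 FPM in ATRA+Cfz, against 137, 145 and 131 FPM in the DMSO libraries. ATRA and ATRA+Cfz libraries lay above every DMSO library and the Cfz library below them. limma gave a log2 fold change of 0.66 ± 0.04 (SE, adjusted p = 1.5e-07) with ATRA, -0.15 ± 0.06 (SE, adjusted p = 0.089) with Cfz, which was not called, and 0.49 ± 0.06 (SE, adjusted p = 2.8e-05) with ATRA+Cfz. DNAJC3 averaged 241 ± 4.69 FPM with ATRA and 273 ± 27.4 FPM with DMSO (SD, n = 3 each), and fell by 0.17, although the groups overlapped and the call was lost under 9 of 17 alternatives. DNAJB11, which binds unfolded chains directly, had log2 fold changes of -0.01, 0.10 and 0.01 with ATRA, Cfz and ATRA+Cfz, none called.

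The lectin chaperones and the glycoprotein isomerase PDIA3 work together on new glycoproteins. CALR (calreticulin) averaged 1484 ± 12.4 FPM with ATRA and 1276 ± 131 FPM with DMSO (SD, n = 3 each), and stood at 1601 FPM in the Cfz library and 1385 FPM in the ATRA+Cfz library. It rose by 0.22 with ATRA and by 0.33 with Cfz, while its 0.12 with ATRA+Cfz was not called. Without DMSO 3 the rise with ATRA was 0.13. The membrane-bound CANX (calnexin) averaged 1856 ± 16.5 FPM with ATRA and 1626 ± 50.9 FPM with DMSO (SD, n = 3 each), and rose by 0.19 with ATRA and by 0.21 with ATRA+Cfz, while its 0.07 with Cfz was not called. PDIA3 rose by 0.22 with Cfz, with 608 FPM against a DMSO mean of 521 ± 42.6 FPM (SD, n = 3), a call lost in lane 1 alone and without any 1 ATRA library. With ATRA and ATRA+Cfz it had 0.00 and -0.08, neither called.

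Of the other disulfide isomerases, PDIA6 and PDIA4 fell with ATRA, and these and P4HB fell with ATRA+Cfz. PDIA6 had 602, 587 and 623 FPM in the ATRA libraries, 720.3 FPM in Cfz and 526 FPM in ATRA+Cfz, against 759, 768 and 662 FPM in the DMSO libraries. All ATRA libraries and the ATRA+Cfz library lay below every DMSO library, and the Cfz library lay within their range. Against DMSO, the log2 fold change was -0.27 ± 0.05 (SE, adjusted p = 1.2e-03) with ATRA, -0.02 ± 0.08 (SE, adjusted p = 0.91) with Cfz, not called, and -0.47 ± 0.08 (SE, adjusted p = 2.7e-04) with ATRA+Cfz. PDIA4 fell by 0.18 with ATRA, a call lost under 5 of 17 alternatives, and by 0.65 with ATRA+Cfz, at 290.2 FPM against 458 ± 39.3 FPM in DMSO (SD, n = 3). Its -0.20 with Cfz was not called, although the Cfz library (396 FPM) lay below every DMSO library. Without DMSO 3 the Cfz difference of PDIA4 was -0.28 and was called. P4HB, the archetypal disulfide isomerase, fell by 0.19 with ATRA+Cfz, a call lost under 9 of 15 alternatives, and was not called with ATRA (0.06) or Cfz (0.03). ERO1B, the oxidase that recharges these enzymes, was not called in any of the 3, with 0.20, -0.23 and 0.27 for ATRA, Cfz and ATRA+Cfz at 7.41 to 10.8 FPM.

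HSP90B1 (GRP94) and its plasma cell partner MZB1 differed. MZB1, a cofactor of HSP90B1 in antibody assembly, had 556, 556 and 547 FPM in the ATRA libraries, 342 FPM in Cfz and 381 FPM in ATRA+Cfz, against 399, 383 and 381 FPM in the DMSO libraries. The ATRA libraries lay far above the others, the ATRA+Cfz library lay at the lower end of the DMSO range and the Cfz library was the lowest. The log2 fold change was 0.51 ± 0.03 (SE, adjusted p = 1.9e-07) with ATRA, -0.18 ± 0.05 (SE, adjusted p = 0.015) with Cfz and -0.02 ± 0.05 (SE, adjusted p = 0.69) with ATRA+Cfz, the last not called. The Cfz call was lost with median-ratio scaling, in lane 1 alone and with edgeR and DESeq2. HSP90B1 itself had log2 fold changes of 0.07 with ATRA, 0.26 with Cfz (adjusted p = 0.054) and 0.17 with ATRA+Cfz, none called, though the Cfz difference was called under 7 of 15 alternatives. HYOU1, the nucleotide exchange factor of BiP, was not called with ATRA (0.06), Cfz (0.22) or ATRA+Cfz (0.10). Its Cfz difference was called under 3 of 15 alternatives, at 0.29 with median-ratio scaling, 0.27 with DESeq2 and 0.12 without DMSO 3.

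The small stress-inducible proteins SDF2L1, MANF and CRELD2 were lowest with ATRA+Cfz. SDF2L1, a partner of DNAJB11, had 20.5, 19.3 and 18.9 FPM in the ATRA libraries, 12.6 FPM in Cfz and 9.34 FPM in ATRA+Cfz, against 20.9, 20.4 and 13.4 FPM in the DMSO libraries. The ATRA+Cfz library was the lowest of all 8, the Cfz library was below every DMSO library, and DMSO 3 was well below DMSO 1 and DMSO 2. Its log2 fold change was -0.90 ± 0.20 (SE, adjusted p = 2.3e-03) with ATRA+Cfz, and -0.49 ± 0.20 (SE, adjusted p = 0.092) with Cfz and 0.12 ± 0.14 (SE, adjusted p = 0.5) with ATRA, neither called. Without DMSO 3 the Cfz difference was -0.69 (adjusted p = 7.5e-05) and that of ATRA was -0.08 (adjusted p = 0.43). MANF, a secreted protein that binds BiP, fell by 0.33 with ATRA+Cfz, at 80.5 FPM against 102 ± 8.23 FPM in DMSO (SD, n = 3), and was not called with ATRA (0.07) or Cfz (0.05). CRELD2 fell by 0.56 with ATRA+Cfz and by 0.26 with ATRA, where the groups overlapped and the call was lost under 5 of 17 alternatives.

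The 9 members with an ERSE or ERSE-II match moved in both directions with ATRA and with ATRA+Cfz. With ATRA, HSPA5, CALR and CANX rose, CRELD2 and HERPUD1 fell, and HSP90B1, HYOU1, SDF2L1 and ERO1B were not called. With Cfz, HSPA5, CALR and HERPUD1 rose and the other 6 were not called. Of these 6, SDF2L1 had -0.49 and was called lower without DMSO 3 (-0.69) and in lane 1 alone (-0.91). HSP90B1 and HYOU1 were called higher under 7 and 3 of 15 alternatives, and the CALR call was lost with robust empirical Bayes. With ATRA+Cfz, HSPA5 and CANX rose, SDF2L1 and CRELD2 fell, and HSP90B1, HYOU1, CALR, ERO1B and HERPUD1 were not called.

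**Figure D3:**
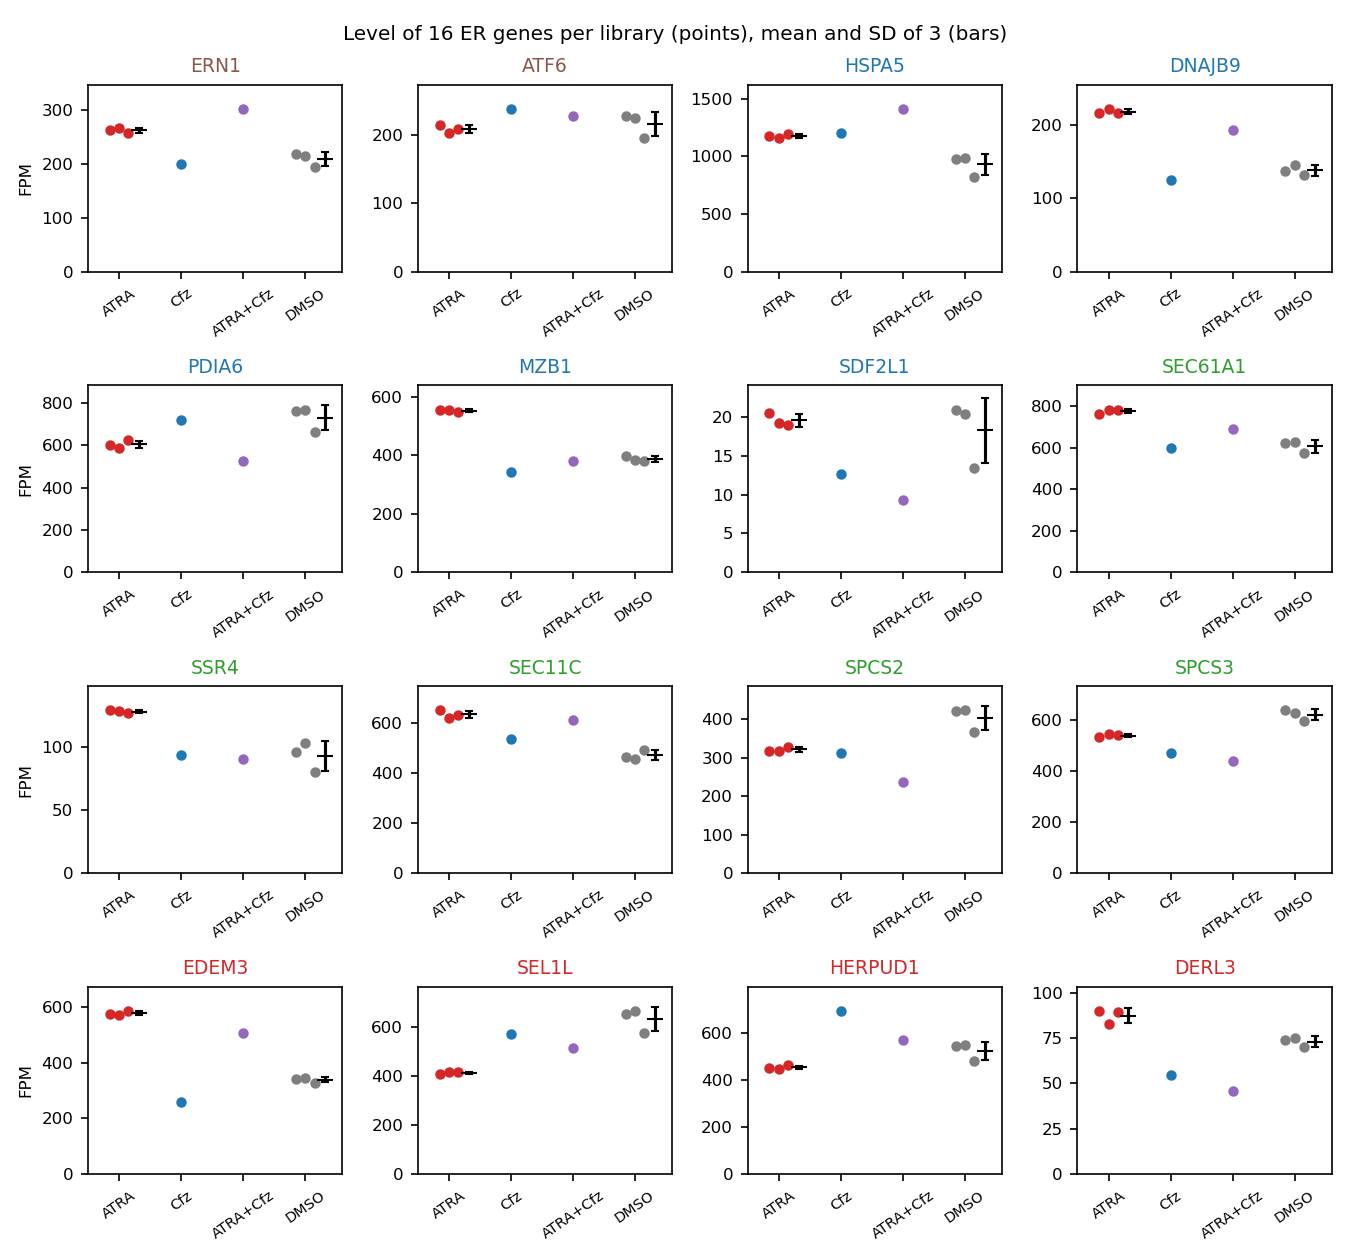
Level in FPM (vertical axis, from 0) of 16 genes in each library (points: ATRA, Cfz, ATRA+Cfz, DMSO), with the mean and standard deviation of the 3 ATRA and of the 3 DMSO libraries as black bars; gene names are coloured by role as in the heat map. MZB1, SSR4 and SEC61A1 are high with ATRA, DNAJB9 and EDEM3 with ATRA and ATRA+Cfz, HERPUD1 with Cfz, and DERL3 and SPCS2 are lowest with ATRA+Cfz.

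Of the 3 subunits of the Sec61 channel, 2 rose with ATRA. SEC61A1, the pore subunit, had 765, 783 and 783 FPM in the ATRA libraries, 597 FPM in Cfz and 691 FPM in ATRA+Cfz, against 621, 628 and 572 FPM in the DMSO libraries. All ATRA libraries and the ATRA+Cfz library lay above every DMSO library, and the Cfz library lay inside their range. limma gave a log2 fold change of 0.36 ± 0.04 (SE, adjusted p = 1.7e-05) with ATRA, -0.02 ± 0.06 (SE, adjusted p = 0.81) with Cfz, not called, and 0.19 ± 0.06 (SE, adjusted p = 0.015) with ATRA+Cfz. SEC61B averaged 146 ± 4.71 FPM with ATRA and 116 ± 4.62 FPM with DMSO (SD, n = 3 each), and rose by 0.34, while its log2 fold changes of -0.01 with Cfz and -0.03 with ATRA+Cfz were not called. SEC61G, the smallest subunit, was not called with ATRA (0.09), Cfz (0.11) or ATRA+Cfz (-0.02).

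All 4 subunits of the translocon-associated protein complex, which helps some signal peptides open the channel, rose with ATRA. SSR4 had 129, 128 and 127 FPM in the ATRA libraries, 93.3 FPM in Cfz and 90.2 FPM in ATRA+Cfz, against 95.7, 103 and 80.0 FPM in the DMSO libraries. The ATRA libraries lay above all others, while Cfz and ATRA+Cfz lay within the DMSO range. Against DMSO, the log2 fold change was 0.47 ± 0.07 (SE, adjusted p = 2.3e-04) with ATRA, and 0.01 ± 0.10 (SE, adjusted p = 0.94) with Cfz and -0.03 ± 0.10 (SE, adjusted p = 0.81) with ATRA+Cfz, neither called. SSR1, SSR2 and SSR3 rose with ATRA by 0.26, 0.22 and 0.19. With Cfz the same 3 subunits fell by 0.24, 0.19 and 0.32, and with ATRA+Cfz SSR2 and SSR3 fell by 0.15 and 0.25 while SSR1 was not called (0.04). SSR3, the most lowered of them by Cfz, averaged 732 ± 12.5 FPM with ATRA, stood at 514 FPM with Cfz and 542 FPM with ATRA+Cfz, and averaged 644 ± 25.5 FPM with DMSO (SD, n = 3 for ATRA and DMSO). The SSR2 calls with Cfz and with ATRA+Cfz were both lost with median-ratio scaling and with DESeq2.

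Within signal peptidase, the catalytic subunit SEC11C rose and the accessory subunits SPCS1, SPCS2 and SPCS3 fell in all 3 treatments. The other catalytic subunit, SEC11A, which is not among the 40 genes, was not called with ATRA (0.09), Cfz (-0.06) or ATRA+Cfz (-0.03). SEC11C had 649, 618 and 632 FPM in the ATRA libraries, 537 FPM in Cfz and 611 FPM in ATRA+Cfz, against 464, 455 and 492 FPM in the DMSO libraries. All 5 treated libraries lay above every DMSO library. The log2 fold change was 0.43 ± 0.04 (SE, adjusted p = 2.6e-06) with ATRA, 0.19 ± 0.05 (SE, adjusted p = 0.023) with Cfz, a call lost in lane 1 alone and without DMSO 1 or DMSO 2, and 0.38 ± 0.05 (SE, adjusted p = 1.1e-04) with ATRA+Cfz. SPCS2 had 318, 318 and 328 FPM in the ATRA libraries, 311 FPM in Cfz and 237 FPM in ATRA+Cfz, against 419.6, 422 and 367 FPM in the DMSO libraries. All 5 treated libraries lay below every DMSO library, with ATRA+Cfz the lowest. Its log2 fold change was -0.32 ± 0.05 (SE, adjusted p = 2.2e-04) with ATRA, -0.37 ± 0.07 (SE, adjusted p = 3.1e-03) with Cfz and -0.76 ± 0.07 (SE, adjusted p = 3.7e-06) with ATRA+Cfz. SPCS3 had 533, 543 and 539.5 FPM in the ATRA libraries, 472 FPM in Cfz and 440.2 FPM in ATRA+Cfz, against 637, 628 and 597 FPM in the DMSO libraries. It too was below every DMSO library in all 5 treated libraries, with -0.20 ± 0.03 (SE, adjusted p = 4.7e-04) for ATRA, -0.39 ± 0.05 (SE, adjusted p = 2.4e-04) for Cfz and -0.49 ± 0.05 (SE, adjusted p = 6.5e-06) for ATRA+Cfz. SPCS1 fell by 0.50 with ATRA+Cfz, and by 0.11 with ATRA and 0.17 with Cfz, calls that were lost under 8 of 17 and 9 of 15 alternatives.

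ERAD genes moved in both directions with ATRA. The EDEM proteins trim mannose from misfolded glycoproteins and mark them for disposal. EDEM3 had 575, 572 and 585 FPM in the ATRA libraries, 258 FPM in Cfz and 506 FPM in ATRA+Cfz, against 341, 345 and 328 FPM in the DMSO libraries. The ATRA and ATRA+Cfz libraries lay above every DMSO library and the Cfz library below every one. limma gave a log2 fold change of 0.77 ± 0.03 (SE, adjusted p = 8.1e-09) with ATRA, -0.39 ± 0.05 (SE, adjusted p = 1.9e-04) with Cfz and 0.58 ± 0.05 (SE, adjusted p = 1.1e-06) with ATRA+Cfz. EDEM1 went the other way, with a mean of 341 ± 3.57 FPM in ATRA and 465 ± 31.5 FPM in DMSO (SD, n = 3 each), and fell by 0.45 with ATRA and by 0.55 with ATRA+Cfz, while its -0.15 with Cfz was not called. EDEM2 averaged 27.2 ± 1.31 FPM with ATRA and 20.0 ± 2.30 FPM with DMSO (SD, n = 3 each), and rose by 0.44. Its log2 fold changes of -0.21 with Cfz and 0.09 with ATRA+Cfz were not called.

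The ubiquitin ligase SYVN1 works with its adaptor SEL1L and the scaffold HERPUD1. SEL1L had 408, 415 and 418 FPM in the ATRA libraries, 571 FPM in Cfz and 516 FPM in ATRA+Cfz, against 656, 666 and 576 FPM in the DMSO libraries. The ATRA libraries were lowest, ATRA+Cfz and Cfz lay between them and the DMSO libraries, and the Cfz value was just under that of DMSO 3. Against DMSO, the log2 fold change was -0.61 ± 0.05 (SE, adjusted p = 1.4e-06) with ATRA, -0.14 ± 0.07 (SE, adjusted p = 0.17) with Cfz, not called, and -0.29 ± 0.07 (SE, adjusted p = 5.0e-03) with ATRA+Cfz. HERPUD1 had 448, 448 and 461 FPM in the ATRA libraries, 692 FPM in Cfz and 567 FPM in ATRA+Cfz, against 544, 547 and 478 FPM in the DMSO libraries. The ATRA libraries lay below and the Cfz and ATRA+Cfz libraries above every DMSO library. The log2 fold change was -0.21 ± 0.05 (SE, adjusted p = 4.2e-03) with ATRA, 0.41 ± 0.07 (SE, adjusted p = 1.6e-03) with Cfz and 0.12 ± 0.07 (SE, adjusted p = 0.18) with ATRA+Cfz, the last not called. The ATRA+Cfz difference was called with median-ratio scaling (0.17), edgeR (0.19) and DESeq2 (0.19), and was 0.06 without DMSO 3. SYVN1 rose by 0.14 with ATRA, a call lost in lane 1 alone and without ATRA 1 or ATRA 2, and was not called with Cfz (-0.15) or ATRA+Cfz (-0.02).

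The derlins form the path through which ERAD clients leave the ER membrane. DERL3 had 89.9, 83.0 and 89.7 FPM in the ATRA libraries, 54.4 FPM in Cfz and 46.0 FPM in ATRA+Cfz, against 74.1, 75.4 and 69.9 FPM in the DMSO libraries. The ATRA libraries lay above and the Cfz and ATRA+Cfz libraries below every DMSO library. Its log2 fold change was 0.26 ± 0.05 (SE, adjusted p = 8.6e-04) with ATRA, -0.42 ± 0.07 (SE, adjusted p = 1.1e-03) with Cfz and -0.66 ± 0.07 (SE, adjusted p = 7.9e-06) with ATRA+Cfz. DERL1 rose by 0.21 with ATRA, and its -0.03 with Cfz and 0.12 with ATRA+Cfz were not called. DERL2 was not called in any of the 3, with 0.09, -0.09 and -0.10 for ATRA, Cfz and ATRA+Cfz. SEC24D, which selects cargo for COPII vesicles leaving the ER, had 140.4, 143 and 137 FPM in the ATRA libraries, 135 FPM in Cfz and 149 FPM in ATRA+Cfz, against 119.7, 115 and 114 FPM in the DMSO libraries. All 5 treated libraries lay above every DMSO library, with log2 fold changes of 0.27 ± 0.04 (SE, adjusted p = 8.6e-05) for ATRA, 0.21 ± 0.05 (SE, adjusted p = 0.011) for Cfz and 0.35 ± 0.05 (SE, adjusted p = 1.4e-04) for ATRA+Cfz.

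With a Cfz pulse before ATRA, most genes of the channel, its partners and signal peptidase were lower than with ATRA alone. Between ATRA+Cfz and ATRA, 4 of 40 members were called higher (10.6% of all genes were) and 20 lower (20.2% of all genes were), and 9 of 11 translocon and signal peptidase genes were among the 20. The median log2 fold change was -0.17 over the members, -0.37 over the translocon and signal peptidase and -0.04 over all genes tested. The 8 largest falls were those of SDF2L1 (-1.03), DERL3 (-0.92), MZB1 (-0.54), SSR4 (-0.50), PDIA4 (-0.48), SPCS2 (-0.44), SSR3 (-0.43) and MANF (-0.40). The 4 rises were those of HERPUD1 (0.33), SEL1L (0.32), HSPA5 (0.26) and ERN1 (0.20). Without DMSO 3 the counts were 7 higher and 25 lower, and 12 of the 24 calls held under every alternative tried. Over all 15827 genes tested, 1681 were called higher and 3203 lower, and 2300 and 4092 without DMSO 3. Median-ratio scaling gave 4 higher and 16 lower, and edgeR and DESeq2 each gave 4 and 15. In the channel itself, SEC61G was not called. The fall of SEC61A1 (-0.17) was lost with median-ratio scaling, edgeR and DESeq2. The rises of HSPA5 and ERN1 were lost without any 1 ATRA library.

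ATRA after the Cfz pulse was also set against the Cfz pulse alone, each arm being 1 library. Between ATRA+Cfz and Cfz, 5 of 40 were called higher (12.8% of all genes were) and 10 lower (17.6% of all genes were). The rises were EDEM3 (0.97), DNAJB9 (0.64), ERN1 (0.59), SSR1 (0.28) and SEC61A1 (0.21). The falls were CRELD2 (-0.47), PDIA6 (-0.45), PDIA4 (-0.45), EDEM1 (-0.40), SPCS2 (-0.39), MANF (-0.38), SPCS1 (-0.32), PDIA3 (-0.30), HERPUD1 (-0.29) and DERL3 (-0.24). edgeR gave 8 higher and 9 lower, and without DMSO 3 the counts were 13 and 17. Over all 15827 genes tested, the counts were 2028 higher and 2790 lower. They became 2300 and 2399 with edgeR, and 2821 and 3463 without DMSO 3. Of the 15 calls, 9 held under every alternative, and that of DERL3 was lost under 9 of 15.

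The interaction asked whether the ATRA effect after Cfz differed from the ATRA effect without it, and 1 member was called higher (0.992% of all genes were) and 3 lower (1.31% of all genes were). DERL3 rose by 0.26 with ATRA against DMSO and fell by 0.24 with ATRA+Cfz against Cfz, an interaction of -0.50 ± 0.10 (SE, adjusted p = 0.028). MZB1 rose by 0.51 without Cfz and had 0.16 after it, an interaction of -0.36 ± 0.07 (SE, adjusted p = 0.024). SEC61B rose by 0.34 without Cfz and had -0.03 after it, an interaction of -0.36 ± 0.08 (SE, adjusted p = 0.049). SEL1L fell by 0.61 without Cfz and had -0.15 after it, an interaction of 0.46 ± 0.10 (SE, adjusted p = 0.043). All 4 calls were lost without any 1 of the ATRA libraries and in lane 1 alone. Median-ratio scaling gave 1 higher and 6 lower, DESeq2 1 and 8, and leaving out DMSO 3 gave 5 and 13. The ATRA effect had the same sign with and without Cfz in 29 of 40 members, and the interaction was below 0 in 32 of 40 members and in 7667 of 15827 genes tested. Its median over the members was -0.13, and -0.08 without DMSO 3.

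**Figure D4:**
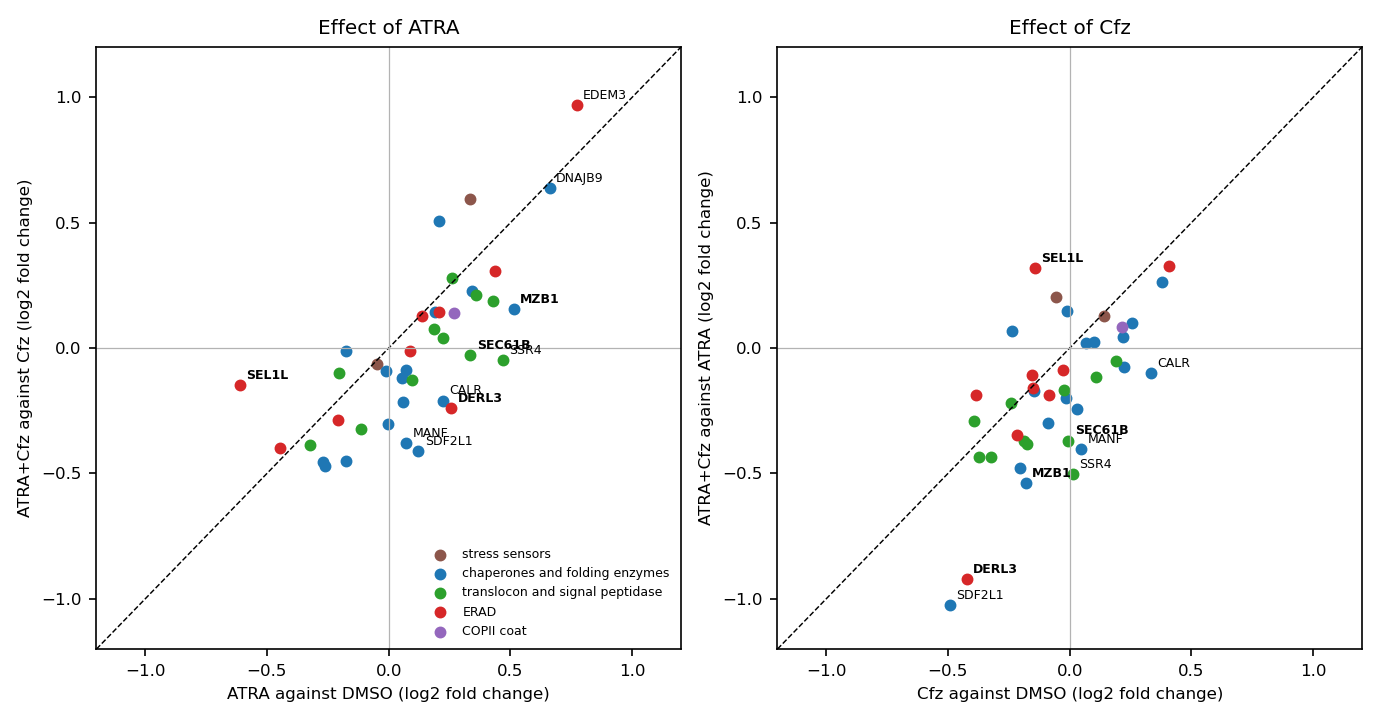
Left, log2 fold change of ATRA+Cfz against Cfz (vertical) by that of ATRA against DMSO (horizontal) for the 40 genes; right, log2 fold change of ATRA+Cfz against ATRA (vertical) by that of Cfz against DMSO (horizontal). Points are genes coloured by role, the dashed line marks equal effects, and bold names have a called interaction. The vertical distance from the line is the interaction in both panels, so the 32 of 40 points below it are the same genes.

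Other genes of the same pathways were read from lists of 116 genes, of which 114 were tested. With ATRA 60 (52.6%) were called higher and 22 (19.3%) lower, against 21.3% and 27.4% of all genes tested. With Cfz 20 (17.5%) were called higher and 24 (21.1%) lower, against 7.94% and 17.0% of all genes. With ATRA+Cfz 38 (33.3%) were called higher and 29 (25.4%) lower, against 20.0% and 30.5% of all genes. Without DMSO 3 the counts were 61 and 31 with ATRA, 26 and 40 with Cfz, and 41 and 44 with ATRA+Cfz. Over all genes tested they were then 3533 and 4688, 1685 and 3764, and 3507 and 5278 of 15827. Of the transducers and factors, XBP1, the factor downstream of ERN1, rose by 1.56 with ATRA and by 1.34 with ATRA+Cfz, and fell by 0.16 with Cfz. These are values per gene, so spliced and unspliced XBP1 were not told apart and the activity of the sensors was not measured. EIF2AK3 (PERK), the third sensor, fell by 0.20 with ATRA, and its -0.12 with Cfz and -0.17 with ATRA+Cfz were not called. ATF4, translated when PERK is active, rose by 0.30 with ATRA, 0.24 with Cfz and 0.74 with ATRA+Cfz. DDIT3 (CHOP), a target of ATF4, rose by 0.62, 0.43 and 1.83 with ATRA, Cfz and ATRA+Cfz. PPP1R15A, a phosphatase subunit that restores translation, rose by 0.80, 1.02 and 1.79 with ATRA, Cfz and ATRA+Cfz. Of the 15 transducers and factors, 7 were called higher and 5 lower with ATRA, 4 and 5 with Cfz, and 6 and 3 with ATRA+Cfz. Without DMSO 3 these counts were 7 and 6, 4 and 6, and 6 and 4. The lowest log2 fold changes of this list were -0.68, -0.43 and -0.96 with ATRA, Cfz and ATRA+Cfz.

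The counts of each list are to be read against the same shares of all genes, 21.3% higher and 27.4% lower with ATRA, 7.94% and 17.0% with Cfz, and 20.0% and 30.5% with ATRA+Cfz. Other folding enzymes had 13 of 29 tested higher and 9 lower with ATRA, 1 and 8 with Cfz, and 4 and 13 with ATRA+Cfz. ERP29 rose by 1.01 and FKBP11 by 0.72 with ATRA, TMX4 fell by 0.57 and FKBP14 by 0.47 with Cfz, and TXNDC5 fell by 0.86 while ERP29 rose by 0.82 with ATRA+Cfz. The oligosaccharyltransferase, which attaches glycans to entering chains, had 6 of 11 higher and 1 lower with ATRA, 0 and 2 with Cfz, and 0 and 5 with ATRA+Cfz. Its subunits DAD1 and TMEM258 rose by 0.32 and 0.18 with ATRA, TMEM258 and OSTC fell by 0.45 and 0.23 with Cfz, and TMEM258 and DDOST fell by 0.53 and 0.38 with ATRA+Cfz.

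Signal recognition and other translocation genes had 7 of 14 higher and 2 lower with ATRA, 3 and 3 with Cfz, and 6 and 2 with ATRA+Cfz. TRAM2 fell by 1.38, 0.39 and 1.93 with ATRA, Cfz and ATRA+Cfz, and SRPRB, a subunit of the signal recognition particle receptor, rose by 0.82 with ATRA. TRAM1 fell by 0.33 with Cfz and SRP9 by 0.54 with ATRA+Cfz. Other ERAD genes had 17 of 27 higher and 4 lower with ATRA, 10 and 5 with Cfz, and 13 and 3 with ATRA+Cfz. UFD1 and NPLOC4, cofactors of the segregase that pulls clients out of the membrane, rose by 1.14 and 0.92 with Cfz and by 1.21 and 1.10 with ATRA+Cfz, while SELENOS and JKAMP rose by 0.50 and 0.43 with ATRA. COPII and ER retrieval genes had 10 of 18 higher and 1 lower with ATRA, 2 and 1 with Cfz, and 9 and 3 with ATRA+Cfz. KDELR3, a receptor that returns escaped ER proteins, and LMAN1, a cargo receptor, rose by 2.02 and 0.73 with ATRA and by 1.22 and 0.75 with ATRA+Cfz. With Cfz, the coat subunit SEC13 rose by 0.34 and KDELR2 fell by 0.31. Counts without DMSO 3, higher and lower, follow for folding enzymes, oligosaccharyltransferase, signal recognition, ERAD and COPII in that order. With ATRA they were 13 and 11, 6 and 3, 8 and 3, 17 and 4, and 10 and 4. With Cfz they were 4 and 12, 1 and 5, 4 and 5, 11 and 8, and 2 and 4. With ATRA+Cfz they were 6 and 15, 0 and 11, 7 and 5, 13 and 4, and 9 and 5.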

How the data were processed

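Total RNA of MM.1S cells was sequenced with standard Illumina libraries, per the labels' protocols. The submitters' processing notes list kallisto 0.46.2, fastp 0.20.0 and DESeq2 without a version. The genome build, annotation and strand setting were not given in the sources used here. For each of 32 lanes the authors deposited FPM, which is a CPM unit: each column sums to 1000000 over distinct gene IDs. Whole reads were recovered for 100% of values within 0.01 read. The 4 lanes of a library were averaged, so that n counts libraries. Within a library, chi-square over degrees of freedom between lanes was 1.21 to 1.26.

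The trended fit of limma 3.58.1 (R 4.3.3) took log2(FPM + 0.5) of all 8 libraries over 15827 genes that averaged at least 0.5 FPM over the 4 group means, with 4 residual and 7.21 prior degrees of freedom. Fold changes are on this scale and are therefore too small for low genes. A call needed an adjusted p (Benjamini-Hochberg, over all genes tested) under 0.05, and every adjusted p in the text is from limma, from this fit unless a library is said to be left out. The floor of 3 reads covers counting error only, while a ± value is the standard error of the fit or the SD between libraries. Alternatives were other pseudocounts, filters and scaling, lane 1 alone, leaving out each ATRA or DMSO library, a replicate block, and edgeR 4.0.16 and DESeq2 1.42.0 on the recovered reads.

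The members and gene lists were chosen with earlier results of these data known. All 40 members were named. Values by library are given for ERN1, ATF6, HSPA5, SEC61A1 and HERPUD1 and, per role and treatment against DMSO, for the called members with the largest rise and fall. Among other pathway genes, XBP1, EIF2AK3, ATF4 and DDIT3 and the 2 called genes with the largest change per list were named. FKBP2, which has 2 IDs, was not used, and TUSC3 was not analysed here. GENCODE release 29 gave overlaps between genes, and RefSeq GRCh38.p14 gave promoters.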

Additional observations from a re-analysis of the deposited data

Results flagged for a closer look

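For 4 members, the log2 effect of ATRA after Cfz (ATRA+Cfz against Cfz) minus its effect without Cfz (ATRA against DMSO) passed the interaction test of limma. The difference was -0.50 for DERL3 (adjusted p = 0.028), -0.36 for SEC61B (adjusted p = 0.049), -0.36 for MZB1 (adjusted p = 0.024) and 0.46 for SEL1L (adjusted p = 0.043). The arms with Cfz hold 1 library each, so these differences have no replicate check on that side. Of all genes tested, 0.992% were called higher and 1.31% lower by the same test. All 4 calls were lost without any 1 of the ATRA libraries, and 0 of 4 held under every alternative.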

How the results depend on the processing

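Leaving out 1 library at a time gave 6 to 12 members lower in ATRA against DMSO, 8 to 18 lower in Cfz against DMSO, 4 to 13 higher and 8 to 17 lower in ATRA+Cfz against Cfz, 2 to 7 higher in ATRA+Cfz against ATRA, and 0 to 5 higher and 0 to 13 lower for the interaction. The upper ends all came without DMSO 3. Lane 1 alone gave 3 higher in Cfz against DMSO, 5 lower in ATRA+Cfz against Cfz, 2 higher and 12 lower in ATRA+Cfz against ATRA, and 0 in either direction for the interaction. ATRA+Cfz against Cfz had 8 higher with robust empirical Bayes and with edgeR. The interaction had 6 lower with median-ratio scaling and 8 with DESeq2. DMSO 3 is in neither arm of ATRA+Cfz against Cfz or against ATRA. Leaving it out changed only the spread shared by all groups there, and the member medians stayed at -0.06 and -0.17. The same holds for Cfz against DMSO when an ATRA library is left out. A single lane holds fewer reads. The cause of these moves was otherwise not tested. No called member changed sign under any alternative tried. Of the calls, 24 of 29 for ATRA, 8 of 15 for Cfz and 18 of 22 for ATRA+Cfz, each against DMSO, held under every alternative; for the interaction 0 of 4 did. Of the members not called, 4 of 11 for ATRA, 12 of 25 for Cfz and 6 of 18 for ATRA+Cfz were called under at least 1 alternative, 2, 8 and 3 of them without DMSO 3 alone.

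With the replicate number as a block, over DMSO and ATRA libraries, 19 members were called higher and 10 lower, as without it. Libraries of equal number did not deviate together (correlations of -0.00584, -0.00206 and 0.00555). With 3 libraries per group this check cannot exclude that equal numbers share a culture or day, which the labels do not tell.

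Over all genes tested, the Cfz against DMSO counts of 1257 higher and 2691 lower became 1637 and 1790 with median-ratio scaling, 1499 and 2057 with edgeR, and 1069 and 944 with DESeq2. Median-ratio scaling shifted that comparison by 0.066 on the log2 scale. ATRA+Cfz against ATRA had 1681 and 3203, and 2029 and 2449 with edgeR. The interaction counts of 157 and 207 became 951 and 1035 without DMSO 3, 0 and 2 without ATRA 1, 123 and 428 with median-ratio scaling and 72 and 228 with DESeq2.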
